A study of Mus musculus with 24 samples.

Results

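The 9 genes described here are the receptors Notch1, Notch2 and Notch3, the ligands Dll1, Dll3 and Jag1, and the target genes Hes1, Hes5 and Hey1. They were taken by gene symbol, and all 9 were present among the 14922 genes of the expression table. Their RNA was measured by poly(A) RNA sequencing in neural stem cells (NSCs), cultured from the cortex of mouse embryos at E14.5, female, with fewer than 10 passages. FVB_WT lines were wild type for Smchd1 on the FVB/NJ background, and FVB_MD43 lines were homozygous for MommeD43, a point change in this chromatin regulator made with the mutagen ENU. B6GFP_MD43 lines came from C57BL/6J mice whose Smchd1 is fused to GFP and was edited with CRISPR to hold the MommeD43 change. The study's methods give these lines as homozygous for the edited fusion allele. B6GFP_WT lines were their controls, labelled Smchd1+/+ and described in the study's methods as homozygous for the same GFP fusion. Strain and GFP fusion therefore differed together between FVB and B6GFP lines, and their parts in any difference cannot be told apart. Of 24 labelled libraries, 2 columns, of B6GFP_MD43 replicate 2 and FVB_MD43 replicate 3 in batch 1, equalled the mean of their 5 group mates and were left out. This left 22 libraries of 17 lines, with 5 lines in FVB_WT and 4 in each of the other groups, and 5 of the lines were sequenced as 2 libraries.

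Notch receptors are activated by Delta and Jagged ligands on a neighbouring cell. The receptor is then cut by γ-secretase, and its intracellular domain joins RBPJ and Mastermind proteins in the nucleus and switches on Hes and Hey genes. In the embryonic cortex, Hes1 and Hes5 repress proneural genes and keep progenitors undifferentiated, while Dll1 and Dll3 are expressed under proneural factors.

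The label of the cells was checked first. The summed level of 8 neural stem cell markers was 12.4 to 12.9 log2 CPM (log2 of a read count scaled by its library) over all lines. The summed list of the oligodendrocyte lineage was 10.4 to 11.1, nearly all of it Olig1 and Olig2, which progenitors also express. That of neurons was 9.58 to 10.1, nearly all of it Map2, so it says little of the other neuron markers. For each of these, the highest B6GFP_MD43 line lay well above the group median. It was 5.20 for Dcx (median 0.60), 6.48 for Tubb3 (3.24), 4.25 for Snap25 (0.63), 3.06 for Rbfox3 (0.45) and 2.97 for Stmn2 (-1.22). The endothelium and fibroblast lists, and the 1 of 4 microglia markers in the table, stayed at or below 3.62 log2 CPM in every line. Rab26 was listed at 0.08 to 1.21 log2 CPM in every FVB library and at 6.58 to 8.03 in every B6GFP library, so no library lay with the other strain. No outside source for Rab26 as a strain marker was used, so this is not an independent check of the labels. Absolute depth was unknown. Relative to the deepest library, depth was 0.526 to 0.893 in batch 1, which held both strains, 0.137 to 0.19 in batch 2, which held FVB libraries, and 0.435 to 1 in batch 3, which held B6GFP libraries. The labels name separate lines, and p-values measure the spread between these lines and libraries. The 2 libraries of a repeated line were little alike. Their correlations over all genes, with group means taken out, were -0.184 to 0.274. Group means average such libraries as 1 line, while the fit used a consensus correlation of 0.0827 between them.

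The promoter of Hes5 is shown because Hes5 was the member that differed most between the strains and because RBPJ, the DNA-binding partner of the Notch intracellular domain, is known to act at Hes promoters. The window runs from 250 bases before to 50 bases after the start site, on the plus strand at chr4:154960673-154960972 of GRCm38.p6 (RefSeq sequence). The annotated span of Hes5 begins upstream of this window, at 154960626. Positions are therefore relative to an annotated start inside the gene span. The RBPJ core, TGGGAA, was searched on both strands, and its matches are in capitals.

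Hes5 promoter: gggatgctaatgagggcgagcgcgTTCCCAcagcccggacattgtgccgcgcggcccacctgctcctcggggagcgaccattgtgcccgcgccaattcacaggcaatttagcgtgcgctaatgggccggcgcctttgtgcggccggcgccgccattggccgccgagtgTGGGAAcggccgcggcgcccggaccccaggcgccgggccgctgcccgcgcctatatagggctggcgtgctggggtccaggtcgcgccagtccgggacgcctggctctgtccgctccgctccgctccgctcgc

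The window held 2 matches, on the opposite strand from position -226 and on the plus strand from position -82. Of 32851 RefSeq promoters of this length, 25.6% held at least 1 match and 3.79% held 2 or more. Promoter windows were found for 7 of the 9 members, and those of the 3 receptors and 3 ligands held no match. Hes1 and Hey1 had no entry. The N-box, CACNAG, a site of the kind bound by Hes proteins, was searched on both strands as well and occurred in 42.5% of all windows. It occurred 3 times in the Notch1 window, where 2 matches overlap on opposite strands, 2 times in Notch3, 1 time in Notch2 and 1 time in the second Dll1 window. The Hes5 window held none.

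All 9 members were expressed in every line, and they differed in level and in how much they varied. Per kilobase of annotated exon, the mean level over 17 lines was 4.36 log2 CPM per kb for Dll1 and 4.18 for Hes1. Jag1 followed at 3.53, Notch1 at 3.31, Hey1 at 3.11, Dll3 at 3.10, Hes5 at 2.76, Notch3 at 2.35 and Notch2 at 1.96. This order averages over both strains and did not hold within each. Hes5 was 3.84 in FVB_WT and 4.14 in FVB_MD43, but 1.65 in B6GFP_WT and 1.16 in B6GFP_MD43. Hes1 lay above Dll1 in FVB_WT (4.66 against 4.38) and below it in B6GFP_WT (3.81 against 4.33). None of the 8 pairs of neighbours in the pooled order differed by more than the SD of their difference over the lines, an SD that also holds strain differences. The closest to it was Notch3 over Notch2, which differed by 0.39 ± 0.431 log2 (SD, n = 17) and in the same direction in 15 of 17 lines. Hey1 and Dll3 differed by 0.02 ± 0.854 log2 (SD, n = 17).

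Pooled over the 4 groups, the spread between lines of 1 group was larger for each target than for each receptor and ligand. This order did not hold in every single group. In FVB_MD43 the SD was 0.174 for Hes1 and 0.243 for Dll3, and in FVB_WT it was 0.398 for Hey1 and 0.422 for Notch3. The SD within groups was 0.083 log2 for Notch1 and between 0.209 and 0.310 for Notch2, Notch3, Dll1, Dll3 and Jag1. It was 0.445 for Hes1, 0.727 for Hes5 and 0.742 for Hey1. Without B6GFP_WT replicate 4 the SD of Hey1 was 0.434. Repeat libraries of 1 line differed least for Notch1 and most for Hes5. Their median difference over the 5 repeated lines was 0.081 log2 and 0.709 log2, and in FVB_MD43 replicate 2 Hes5 was 4.91 log2 CPM in batch 1 and 3.62 in batch 2. Other targets did not stand apart here, since the median was 0.298 for Hes1, 0.279 for Hey1 and 0.317 for Jag1.

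**Figure D1:**
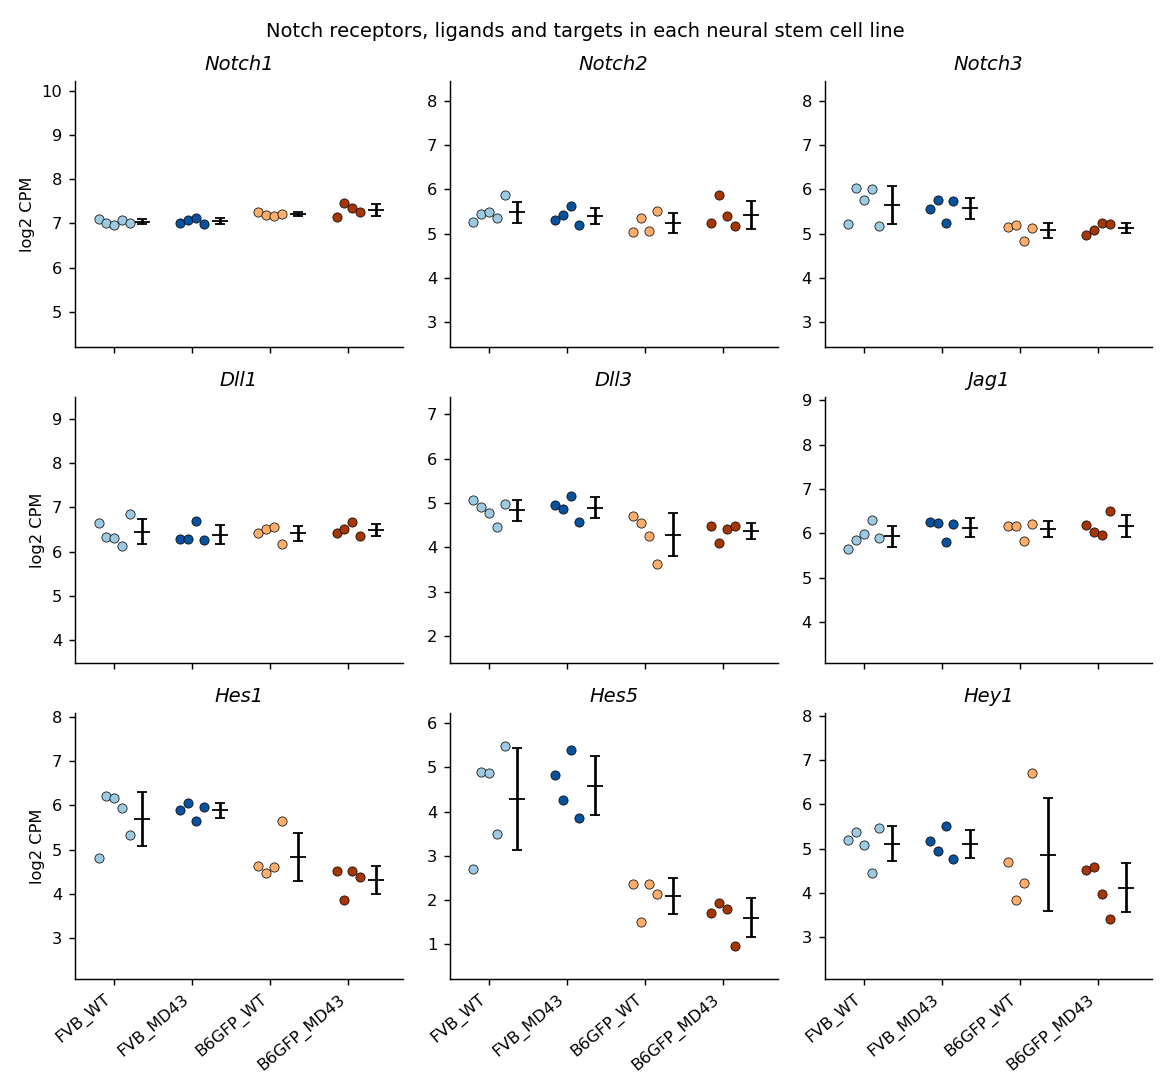
Level of each member in each NSC line, in log2 CPM, by group. Points are the 17 lines in order of replicate number, bars are the group mean and SD over lines, and all panels span the same number of log2 units. Hes5 separates the FVB lines (2.70 to 5.48) from the B6GFP lines (0.96 to 2.37), while Notch2, Dll1 and Jag1 overlap between the strains.

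Among the receptors, Notch1 (Entrez 18128, chromosome 2, 26457902 to 26503822 on GRCm38.p6, minus strand), the main receptor of cortical progenitors, was the most even member. Its levels in FVB_WT lines were 7.10, 7.01, 6.96, 7.08 and 7.02 log2 CPM, and those in FVB_MD43 lines were 7.01, 7.07, 7.13 and 6.98. In B6GFP_WT lines it was 7.26, 7.19, 7.17 and 7.22, and in B6GFP_MD43 lines 7.14, 7.47, 7.34 and 7.27. All 8 B6GFP lines lay above all 9 FVB lines, although by only 0.01 log2 between the nearest lines. Notch3 (Entrez 18131, chromosome 17, 32120820 to 32166896, minus strand), a receptor also used by mural cells of vessels, was lower in most B6GFP lines. It was 5.22, 6.04, 5.76, 6.02 and 5.17 log2 CPM in FVB_WT and 5.56, 5.75, 5.23 and 5.74 in FVB_MD43. In B6GFP_WT it was 5.15, 5.20, 4.82 and 5.12, and in B6GFP_MD43 4.97, 5.08, 5.23 and 5.21. The strains overlapped through FVB_WT replicates 1 and 5, with FVB_MD43 replicate 4 at the top of the B6GFP range. Notch2 (Entrez 18129, chromosome 3, 98013538 to 98150367, plus strand) ranged from 5.20 to 5.87 log2 CPM in FVB and from 5.03 to 5.88 in B6GFP lines, which overlap almost completely.

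The ligands were more alike. Dll1 (Entrez 13388, chromosome 17, 15367354 to 15376932, minus strand), the Delta ligand of differentiating progenitors, ranged from 6.13 to 6.85 log2 CPM in FVB and from 6.17 to 6.66 in B6GFP lines. Jag1 (Entrez 16449, chromosome 2, 137081451 to 137116520, minus strand) ranged from 5.65 to 6.29 and from 5.83 to 6.50. Both overlapped between all groups. Dll3 (Entrez 13389, chromosome 7, 28293555 to 28301785, minus strand), a divergent Delta protein that does not activate receptors on other cells, lay lower in B6GFP lines. Its levels were 5.06, 4.91, 4.77, 4.45 and 4.99 log2 CPM in FVB_WT, and 4.96, 4.87, 5.16 and 4.58 in FVB_MD43. They were 4.71, 4.55, 4.25 and 3.62 in B6GFP_WT and 4.49, 4.10, 4.40 and 4.48 in B6GFP_MD43. The MommeD43 lines of the 2 strains did not overlap, and the wild type lines did.

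Among the targets, Hes5 and Hes1 differed between the strains by more than any other member. Hes5 (Entrez 15208, chromosome 4, 154960626 to 154962372, plus strand), a repressor used widely as a readout of Notch activity in progenitors, was 2.70, 4.90, 4.87, 3.49 and 5.48 log2 CPM in FVB_WT and 4.83, 4.26, 5.38 and 3.86 in FVB_MD43. It was 2.36, 1.52, 2.37 and 2.14 in B6GFP_WT and 1.72, 1.94, 1.81 and 0.96 in B6GFP_MD43. Every B6GFP line lay below every FVB line, with FVB_WT replicate 1 nearest to them. Hes1 (Entrez 15205, chromosome 16, 30065357 to 30067796, plus strand), a repressor whose levels oscillate in progenitors, was 4.80, 6.21, 6.16, 5.94 and 5.32 log2 CPM in FVB_WT and 5.89, 6.05, 5.64 and 5.96 in FVB_MD43. It was 4.62, 4.46, 4.61 and 5.63 in B6GFP_WT and 4.51, 3.86, 4.52 and 4.37 in B6GFP_MD43. In wild type lines the strains overlapped because B6GFP_WT replicate 4 (5.63) lay above FVB_WT replicates 1 (4.80) and 5 (5.32). FVB_WT replicate 1 had the lowest Hes1 and Hes5 of the FVB lines. Hey1 (Entrez 15213, chromosome 3, 8663359 to 8667038, minus strand), a related repressor, ranged from 4.46 to 5.51 log2 CPM in FVB and from 3.41 to 4.71 in 7 of the 8 B6GFP lines. In B6GFP_WT replicate 4, a single library, it was 6.71, the highest Hey1 of any line.

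**Figure D2:**
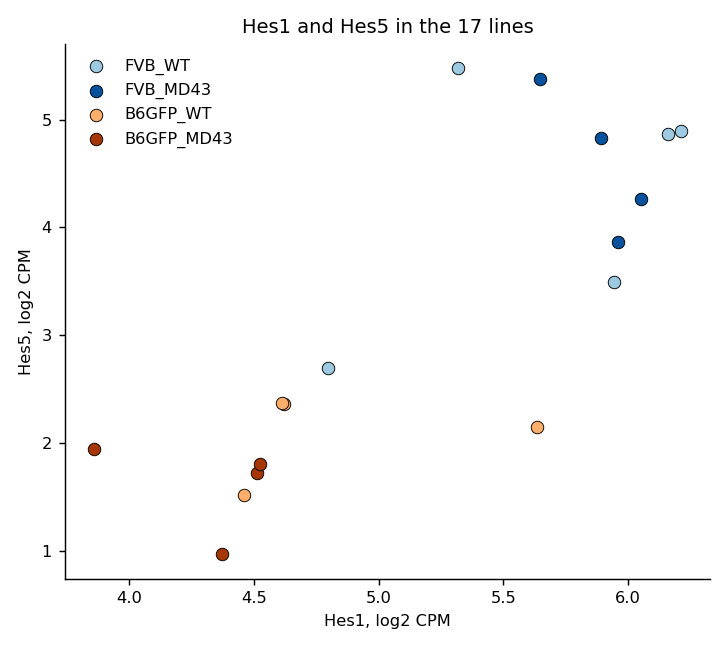
Hes5 (vertical axis) against Hes1 (horizontal axis), both in log2 CPM, with 1 point per line coloured by group. Most FVB lines lie at the upper right and most B6GFP lines at the lower left, while FVB_WT replicate 1 (Hes1 4.80, Hes5 2.70) lies next to the B6GFP lines and B6GFP_WT replicate 4 has Hes1 of the FVB range (5.63) with low Hes5 (2.14).

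The MommeD43 comparison asked whether the allele altered Notch gene expression in each background. No member passed the threshold in either. Differences between groups were fitted with limma across all genes, with quality weights per library, and adjusted p-values are Benjamini-Hochberg over 14922 genes with a threshold of 0.05. In FVB lines 0 of 9 members passed, against 0.0737% of all genes (11 genes), and 0 of 9 had an unadjusted p under 0.05. The largest fitted change was Jag1, higher in MommeD43 by 0.15 log2 (95% interval -0.04 to 0.34, limma adjusted p = 0.860). Hes1 differed by -0.03 (-0.31 to 0.26) and Hes5 by 0.08 (-0.51 to 0.67). Notch1 had the narrowest interval, -0.08 to 0.12 around 0.02.

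In B6GFP lines 0 of 9 members passed and 0% of all genes did, while the unadjusted p was under 0.05 for 319 genes and for 0 members. Hes5 was lower in MommeD43 lines by 0.47 log2 (SE 0.368, 95% interval -1.24 to 0.29, limma adjusted p = 1), and 1 B6GFP_MD43 line had the lowest value of all (0.96). Hes1 differed by -0.17 (-0.54 to 0.21) in this fit. The unweighted difference of the line means was larger, at -0.52 log2, with an exact two-sided permutation p of 0.0857 over 4 and 4 lines, where the smallest possible p is 0.0286. B6GFP_WT replicate 4, whose library had a quality weight of 0.101, was the only B6GFP_WT line above 4.62 for Hes1. The difference of the MommeD43 effect between the strains was tested as an interaction. It passed for 0 of 9 members and for 0% of all genes (the unadjusted p was under 0.05 for 459 genes). Its estimate was -0.55 log2 for Hes5 (SE 0.464, limma adjusted p = 0.9998) and lay between -0.14 and 0.13 for each of the others.

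**Figure D3:**
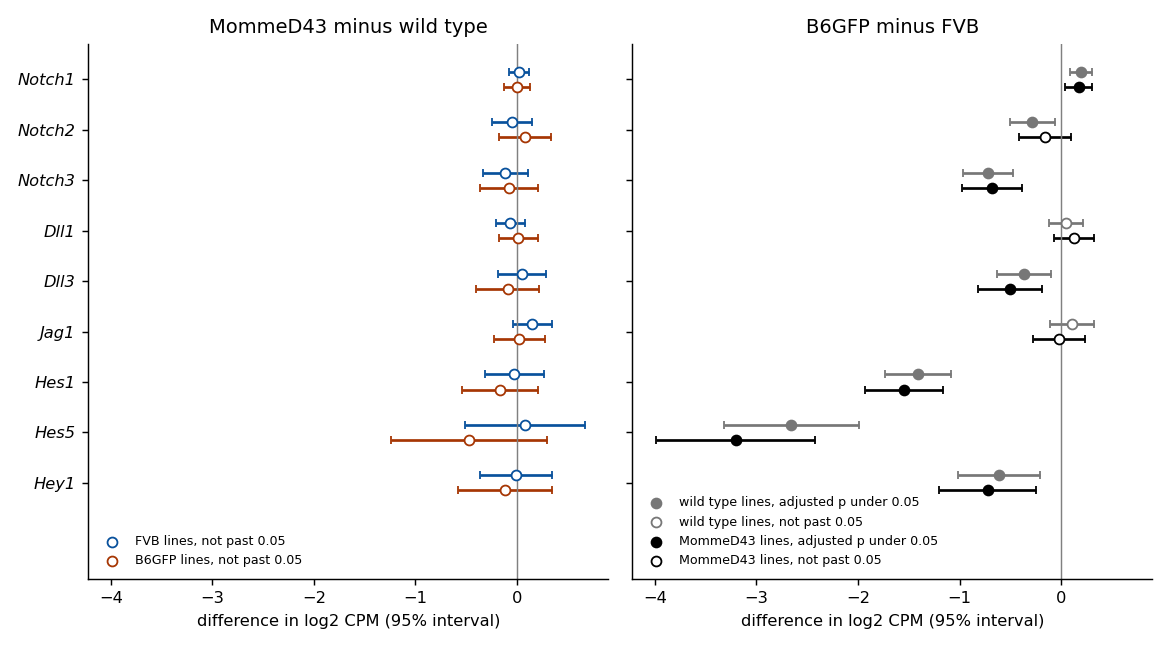
Fitted difference in log2 CPM (horizontal axis, with 95% interval) for each member, MommeD43 minus wild type within each strain on the left and B6GFP minus FVB within each genotype on the right; filled points passed an adjusted p of 0.05. On the left all 18 intervals include 0, and on the right Hes5 reaches -2.66 in wild type and -3.21 in MommeD43 lines.

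The strain comparison asked whether the same genes differed between the B6GFP and FVB cultures. It was the larger contrast for these genes and for the table as a whole. In wild type lines 7 of 9 members passed, 6 of them lower in B6GFP, against 41.1% of all genes (23.2% lower and 17.9% higher). In MommeD43 lines 6 of 9 passed, 5 of them lower, against 34.4% of all genes (19.6% lower and 14.7% higher). The comparisons use different lines of the same strains. The median difference over the 9 members was -0.36 log2 in wild type and -0.50 in MommeD43 lines, and over all genes -0.02 and -0.03. The split of all calls depended on scaling, since with each library centred on its median 2544 of 6152 calls in wild type were lower in B6GFP, in place of 3455 of 6131, and 2265 of 5278 in MommeD43 lines in place of 2927 of 5126. With this centring 5 members passed in wild type lines in place of 7, without Notch2 and Dll3, and 6 passed in MommeD43 lines.

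Hes5 was lower in B6GFP by 2.66 log2 in wild type lines (SE 0.320, 95% interval -3.32 to -1.99, limma adjusted p = 1.358e-06), which is 6.31-fold. In MommeD43 lines the difference was -3.21 (SE 0.377, -3.99 to -2.42, limma adjusted p = 1.542e-06), or 9.23-fold. Hes1 was lower by 1.41 log2 in wild type (SE 0.157, -1.73 to -1.08, limma adjusted p = 4.651e-07) and by 1.55 in MommeD43 lines (SE 0.185, -1.93 to -1.17, limma adjusted p = 1.827e-06). These are 2.65-fold and 2.93-fold. With 1 value per line and no weights, the wild type difference was -2.19 log2 for Hes5 (exact two-sided permutation p = 0.0159) and -0.85 for Hes1 (exact p = 0.0635), over 5 and 4 lines. The exact p was 0.0286 for each of them over 4 and 4 MommeD43 lines, the smallest that design allows. Without weights, the wild type difference of Hey1 was -0.25 log2 (exact p = 0.706), that of Notch2 -0.24 (exact p = 0.190), that of Notch3 -0.57 (exact p = 0.0556), that of Dll3 -0.55 (exact p = 0.0476) and that of Notch1 0.18 (exact p = 0.00794, the smallest possible), again over 5 and 4 lines.

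Notch3 was lower in B6GFP by 0.72 log2 in wild type (SE 0.120, limma adjusted p = 7.293e-05) and by 0.68 in MommeD43 lines (SE 0.141, limma adjusted p = 0.000867). Notch1 moved the other way, higher by 0.20 (SE 0.0534, limma adjusted p = 0.00560) and by 0.17 (SE 0.0628, limma adjusted p = 0.0362), which is 1.15-fold and 1.13-fold. Dll3 was lower by 0.36 (limma adjusted p = 0.0291) and by 0.50 (limma adjusted p = 0.0147). Hey1 was lower in the weighted fit by 0.61 (limma adjusted p = 0.0153), in which B6GFP_WT replicate 4 had a weight of 0.101, and by 0.72 (limma adjusted p = 0.0181). Notch2 was lower by 0.28 in wild type (limma adjusted p = 0.0367) and did not pass in MommeD43 lines, where it differed by -0.16 (95% interval -0.42 to 0.10). For Dll1 the intervals were -0.12 to 0.21 in wild type and -0.07 to 0.32 in MommeD43 lines, and for Jag1 -0.11 to 0.32 and -0.28 to 0.24.

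These calls rested on the quality weights. With all libraries weighted equally, Hes5 alone passed in wild type lines (1 of 9, with 1259 genes in place of 6131) and Hes1 and Hes5 in MommeD43 lines (2 of 9, with 1017 genes in place of 5126). In that fit the wild type differences were -0.96 log2 for Hes1 (limma adjusted p = 0.0543), -0.61 for Notch3 (0.0765) and 0.18 for Notch1 (0.288), and Hey1 differed by -0.39 in place of -0.61. Leaving out FVB_WT replicate 2 or B6GFP_WT replicate 2 left 4 of 9 members called in wild type, and Hes1, Hes5, Notch1 and Notch3 passed in all 17 fits that left out 1 line. The Notch1 call in MommeD43 lines was lost without B6GFP_MD43 replicate 3 (0.10, limma adjusted p = 0.0633), FVB_MD43 replicate 1 or FVB_MD43 replicate 5. Without B6GFP_MD43 replicate 3 the Notch2 difference there passed (-0.24, limma adjusted p = 0.0309), and without B6GFP_MD43 replicate 1 that of Dll1 did (0.26, limma adjusted p = 0.0200). Within batch 1, the batch with both strains, Hes1, Hes5, Notch3 and Hey1 passed in both genotypes, Notch1 passed in wild type lines and Dll3 and Notch2 in neither. That fit held few libraries, namely replicates 1 to 3 of each wild type group. For MommeD43 it held only FVB_MD43 replicates 1 and 2 and B6GFP_MD43 replicates 1 and 3.

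Cell type markers also differed between the strains, and their part in the member differences was not tested. Of all genes, 41.1% passed in wild type lines and 34.4% in MommeD43 lines. Of 8 neural stem cell markers, 4 were lower and 2 higher in B6GFP wild type lines, and 3 lower and 2 higher in MommeD43 lines. Of 6 neuron markers 2 were lower and 0 higher in wild type lines, and 1 was lower and 1 higher in MommeD43 lines. The neuron share, 33.3% in both, lay near those of all genes. Of 6 oligodendrocyte lineage markers 1 was lower and 2 were higher in wild type lines, and 2 were lower and 2 higher in MommeD43 lines. The largest of these differences was that of Mbp, a myelin gene, with a mean of 1.22 ± 1.06 log2 CPM (SD, n = 5) in FVB_WT and -3.23 ± 0.478 (SD, n = 4) in B6GFP_WT. All 4 astrocyte markers were lower in B6GFP in both genotypes, and their sum was 6.14 to 7.57 log2 CPM over the FVB lines against 4.38 to 6.71 over the B6GFP lines. Nearly all of that sum was Aldh1l1, at 6.57 ± 0.327 (SD, n = 5) in FVB_WT, which is also expressed in radial progenitors. Gfap averaged at most 0.50 and Aqp4 at most 1.02 log2 CPM in any group. Of 5 markers of pericytes and smooth muscle, cells in which Notch3 and Hey genes are also active, 3 were in the table and all 3 were lower in B6GFP wild type lines. Their sum ranged from 1.70 to 3.997 log2 CPM over FVB lines, and from -0.28 to 5.02 over B6GFP lines. The top of that range, 5.02, was in B6GFP_WT, and Pdgfrb averaged below 0 in all groups. Fewer cells of a type and less RNA per cell cannot be told apart in these bulk cultures.

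The rest of the pathway was examined with a list of 55 genes of receptor processing, trafficking, the nuclear complex, other targets and proneural genes, of which 51 were measured. None passed between MommeD43 and wild type in either strain or in the interaction. Their unadjusted p was under 0.05 for 4 genes in FVB, 0 in B6GFP and 3 in the interaction. The smallest p in FVB lines belonged to Neurl1b, a ubiquitin ligase that promotes ligand endocytosis (0.54 log2, SE 0.136, limma adjusted p = 0.170). In B6GFP lines it belonged to Aph1a, a γ-secretase subunit (-0.09, limma adjusted p = 1). The interaction estimate of Neurl1b was -0.59 (limma adjusted p = 0.9998).

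Between the strains, 12 of the 51 were higher and 10 lower in B6GFP wild type lines, and 11 higher and 8 lower in MommeD43 lines. These shares, 43.1% and 37.3%, lay near those of all genes. By role, the counts in each direction were uneven, and the differences between roles were not tested. The split of all calls by direction also depended on scaling, as given above. Of 13 genes of the nuclear complex 5 were higher and 0 lower in wild type lines, and of 9 genes of receptor cleavage 3 were higher and 1 lower. These 2 shares, 38.5% and 44.4%, lay near the 41.1% of all genes. In MommeD43 lines the counts were 5 higher and 0 lower, and 4 higher and 1 lower. Of 5 genes of receptor glycosylation 0 were higher and 3 lower in wild type lines, the Fringe genes Lfng, Mfng and Rfng. In MommeD43 lines 0 were higher and 2 lower. Of 12 trafficking genes 3 were higher and 1 lower in wild type lines, and of 6 other receptors and ligands 1 was higher and 1 lower. Of the 3 other targets measured 2 were lower in wild type lines, Hey2 (-1.34 log2) and Nrarp (-0.70). Hey2 was barely expressed, at -2.30 ± 0.651 log2 CPM (SD, n = 5) in FVB_WT and -3.14 ± 1.13 (SD, n = 4) in B6GFP_WT, with overlapping lines. Hes6, an antagonist of Hes1, differed by -0.28. With equal weights only Aph1b, Hdac1, Ncstn and Numbl of the 51 passed in wild type lines. The calls of the Fringe genes, Hey2 and Nrarp were then lost.

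Among these 51 genes, the smallest p in both strain comparisons belonged to Aph1b, a subunit of γ-secretase. Its mean was 3.99 ± 0.229 log2 CPM (SD, n = 5) in FVB_WT and 5.77 ± 0.0478 (SD, n = 4) in B6GFP_WT, a difference of 1.83 (limma adjusted p = 1.982e-12), and in MommeD43 lines it was 1.77. The mouse genome holds a close copy of Aph1b, Aph1c, so the split of reads between them is uncertain. Hdac1, a co-repressor subunit, was higher by 0.68 and 0.75 log2 (limma adjusted p = 9.622e-09 and 3.571e-08). Nicastrin (Ncstn), another γ-secretase subunit, was higher by 0.41 and 0.42. Numbl, a relative of the Notch inhibitor Numb, was higher by 0.91 and 0.88. Maml3, a Mastermind co-activator, was higher by 1.81 in wild type lines (limma adjusted p = 5.941e-05), from a low mean of 0.61 ± 0.805 log2 CPM (SD, n = 5) in FVB_WT. That call was lost with equal weights (1.28, limma adjusted p = 0.113), and the difference was 1.14 with log2(CPM + 1).

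**Figure D4:**
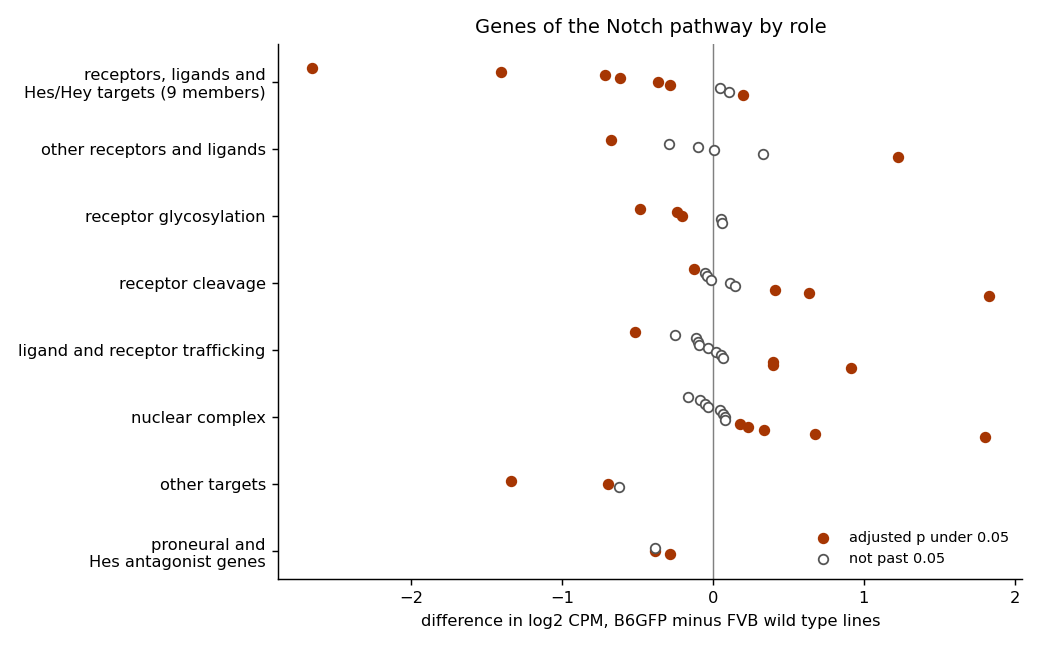
Fitted difference in log2 CPM between B6GFP and FVB wild type lines (horizontal axis) for the 9 members and the 51 other genes of the pathway in the table, by role; filled points passed an adjusted p of 0.05. The nuclear complex has 5 of 13 filled points, all to the right of 0, and the 3 filled points of receptor glycosylation lie to the left of it.

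Members were also compared with each other over the 17 lines, after the mean of each group was taken out. Of 36 pairs, 0 passed an adjusted p of 0.05 by Pearson correlation, 8 had an unadjusted p under 0.05, and 1 passed by Spearman correlation. The pairs with the largest coefficients all held Dll1. Dll1 was lower where Jag1 was higher, with r = -0.74 (permutation p = 0.00232, adjusted p = 0.0835) and rho = -0.75 (permutation p = 0.00077, adjusted p = 0.0277). Without the 2 lines farthest from the median of Dll1 it was r = -0.80, and within the 3 batches it was -0.84, -0.47 and -0.66. For Dll1 and Notch3, r was -0.78 and rho -0.66 (adjusted p = 0.120 for r), with -0.66 without the 2 farthest lines. Within batches that r was -0.50, -0.97 and -0.16, so it differed widely between them. For Dll1 and Hes1, r was -0.69 and rho -0.73 (adjusted p = 0.120 for r), with -0.72 without the 2 farthest lines and -0.73, -0.92 and -0.59 within batches. The values within batches are over 10, 6 and 6 libraries.

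Genes with the most similar pattern were sought over the 17 lines, with the mean of each strain taken out, among 11782 genes above 1 CPM in every library. For Hes1 they were Ppp1r3c (r = 0.94), Asb1 (0.93) and Bhlhe40 (0.93). For Hes5 they were Kbtbd8 (0.84), Gm10778 (0.83) and Marcks (0.81). For Notch1, which varied least, they were Has3 (0.86), Ccdc85c (0.85) and Rai1 (0.83). These are the highest of 11782 coefficients over 17 lines and are given as a description. How high such a search reaches by chance was not tested, and no lines were left out.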

How the data were processed

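Per the labels' processing notes and the study's methods, the authors trimmed reads with Trim Galore 0.4.4 and Cutadapt 2.9, mapped them with HISAT2 2.0.5 to GRCm38.p6 and used limma 3.40.6 and edgeR 3.26.8 in R 3.6.1. The counting tool and its use of strand are not given in the sources used here, and Notch1, Notch3, Dll1 and Hes5 overlap annotated genes on the opposite strand. The deposited values were log2 CPM that already held a batch correction. For Hes5, batch means were equal over all libraries of a strain with the left-out column put back, but not within a group. Hes5 in FVB_WT was 2.70, 4.90 and 4.87 log2 CPM in batch 1 and 3.49, 5.48 and 4.89 in batch 2. The study's methods describe a correction for batch, sex and strain in its own limma analysis, which held loss-of-function libraries not used here. Strain differences were present in the deposited values. All 3143 low values were whole multiples of 1 step within 0.1 step, which gave relative depth. Since the values were not counts, no counting intervals are given and voom was replaced by limma 3.58.1 (R 4.3.3) on the log2 values, with group and batch terms, array quality weights (0.101 to 4.9), the line as a block (consensus correlation 0.0827), a mean trend, and 16 residual and 4.86 prior degrees of freedom. Group means and SD are over lines. The fit was also run on simulated data with independent noise in each library. These held no line, batch or quality effects, so that run does not test the block, batch terms or weights. Exact permutation tests over lines were added after seeing the data. Exon lengths were from GENCODE over all transcripts of a gene. The named pathway genes were up to 5 that passed per comparison, ranked by p, and otherwise the 2 of lowest p. The Fringe genes, Hey2, Nrarp and Hes6 fall outside this rule and were named after their values were seen. The members and lists were chosen with earlier results of these data known. Some genes that the rule names are not reported here.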

Additional observations from a re-analysis of the deposited data

Results flagged for a closer look

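Of 36 sets of 1 member in 1 group, 4 held a line whose gap to its nearest neighbour was large for the range of its group, against about 1 in 20 expected by chance. In FVB_MD43, replicate 4 stood above the other 3 lines for Dll1 (6.70 log2 CPM) and below them for Jag1 (5.81). In B6GFP_WT, replicate 3 was low for Jag1 (5.83) and replicate 4 was high for Hes1 (5.63).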

How the results depend on the processing

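Of the 37 times that a member or named gene lost its call under an alternative, 11 came from equal weights for all libraries; the cause was not tested. With equal weights 1 gene was called for MommeD43 in FVB in place of 11. Between the strains 1 of 9 members, 4 of 51 pathway genes and 1259 genes were called in wild type lines, and 2, 5 and 1017 in MommeD43 lines. In FVB the count of genes was 3 with log2(CPM + 1), 19 with centred libraries and 0 within batch 1 or batch 2. With the mean of each line 1 gene was called in B6GFP, and without the batch term 1 in the interaction. By Spearman correlation 1 pair of members passed. Leaving out 1 line gave 3 to 981 genes in FVB (981 without FVB_MD43 replicate 2) and 0 to 3 pathway genes, 0 to 139 genes in B6GFP (139 without B6GFP_MD43 replicate 3) and 0 to 12 in the interaction. Between wild type lines it gave 4 to 7 members, 14 to 24 pathway genes and 4014 to 6400 genes, the lowest of each without FVB_WT replicate 2, and between MommeD43 lines 4644 to 8179 genes.

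Lines of the same replicate number did not deviate together, with correlations of -0.48 to 0.14 over the FVB pairs and -0.36 to 0.13 over the B6GFP pairs. A fit with the replicate number as a block called 137 genes in FVB and 3 in B6GFP and no member for MommeD43. With this block the sign turned in FVB for Notch2 (0.0083), Dll3 (-0.068) and Hes5 (-0.069), in B6GFP for Notch1 (0.0034), Notch3 (0.056) and Jag1 (-0.0056), and in the interaction for Dll3 (0.00961).

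No change of sign concerned a difference that passed. The other sign changes of MommeD43 in FVB were Hes1 with equal weights (0.17), line means (0.00511), unweighted line means (0.20) and within batch 2 (0.053), Hes5 within batch 2 (-0.69) and Hey1 within batch 1 (0.023). In B6GFP they were Notch1 (0.10), Notch3 (0.079) and Dll3 (0.055) with equal weights, and Notch1 (0.092), Notch3 (0.052) and Dll3 (0.086) with unweighted line means. Without the batch term they were Notch1 (0.030) and Jag1 (-0.030), with centring Dll1 (-0.00017) and within batch 1 Jag1 (-0.081). Within batch 3 they were Notch1 (0.23), Notch3 (0.31), Dll3 (0.030), Hes1 (0.032), Hes5 (0.37) and Hey1 (0.12). In the interaction they were Notch1 (0.088) and Dll3 (0.013) with equal weights, Notch1 (0.013) without the batch term and Notch3 (-0.024) within batch 1. Between strains they were Dll1 in wild type (-0.030 with equal weights, -0.042 with unweighted line means), and in MommeD43 lines Notch2 (0.040 and 0.037) and Jag1 (0.0062 and 0.037, and 0.045 with centring).

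Leaving out 1 line, the members whose sign turned ranged in FVB as Notch1 (-0.015 to 0.036), Notch2 (-0.19 to 0.021), Notch3 (-0.27 to 0.027), Dll3 (-0.020 to 0.15), Hes1 (-0.16 to 0.16), Hes5 (-0.059 to 0.31) and Hey1 (-0.10 to 0.083). In B6GFP the ranges were Notch1 (-0.066 to 0.073), Notch2 (-0.0073 to 0.24), Notch3 (-0.14 to 0.020), Dll1 (-0.042 to 0.14), Dll3 (-0.28 to 0.032), Jag1 (-0.14 to 0.085) and Hey1 (-0.49 to 0.036). In the interaction they were Notch1 (-0.085 to 0.054), Notch3 (-0.10 to 0.21) and Hey1 (-0.48 to 0.050), and between MommeD43 lines Notch2 (-0.24 to 0.046) and Jag1 (-0.20 to 0.038).

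Depth was lowest in batch 2, and Hes5 was lowest in B6GFP libraries of batches 1 and 3. Counting error could not be computed for either.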
